A study of Mus musculus with 19 samples.

Results

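The aminoacyl-tRNA synthetase genes are the 38 genes, of 14173 listed, whose symbols follow the naming pattern of this enzyme family: an amino acid letter with "ars" and, where present, 1 or 2, together with Eprs1, Farsa, Farsb, Fars2 and Tars3. The pattern uses symbols and not values, though the family was chosen with earlier results of these data known. By the known site of their enzymes, 19 serve the cytosol, 17 serve mitochondria, and Gars1 and Kars1 each encode an enzyme of both compartments. The last 2 are counted with the cytosolic genes below, which makes 21.

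RNA of single mouse blastocysts was sequenced from 9 Padi6-mutant embryos and 10 Control embryos. Per the series text, the mutant embryos came from oocytes carrying the Padi6 P620A substitution, so the group is defined by the mother's gene. PADI6 is an oocyte protein of the cytoplasmic lattices. The labels used here give no strain, age, litter, batch or further allele for either group, and the Control embryos are labelled only as such. Each library is 1 embryo. Whether embryos of a group came from 1 or several mothers is not given in the sources used here, so p-values measure the spread between these embryos, which could share a litter or a day.

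Aminoacyl-tRNA synthetases join each amino acid to its tRNA, the step that sets which amino acid a codon adds to a protein. Cells make 1 set for the cytosol and another, also encoded in the nucleus, for mitochondrial protein synthesis. Several cytosolic synthetases are held by the scaffold proteins AIMP1, AIMP2 and AIMP3 in a multi-synthetase complex. When amino acids run short, the kinase GCN2 raises translation of the transcription factor ATF4, and many cytosolic synthetase genes are among ATF4's known targets.

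The element bound by ATF4 is shown here because many cytosolic synthetase genes are among the known targets of ATF4. TGATGNAA was searched on both strands of the RefSeq promoters (GRCm38.p6, 250 bases before to 50 after the gene start). It was found in 5 of the 28 members with a promoter in the table, and in 1219 of 27025 genes with a promoter (4.51%). All 5 were among the 8 members with a promoter that were listed as ATF4 targets, and none of the other 20 held it. That list was written from general knowledge, which can include known elements of these promoters. The split is therefore no independent check of the list. For each gene the match nearest its start is shown. For Aars1 and Gars1 the bases after that start were not found near the 5′ end of an annotated transcript. For Iars1, Tars1 and Yars1 they were. The windows run 5′ to 3′ along the gene, with the matched letters in capitals (reverse complement in all but Yars1).
Aars1 at chr8:111033840-111033869, plus strand: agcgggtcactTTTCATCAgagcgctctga
Gars1 at chr6:55037960-55037989, plus strand: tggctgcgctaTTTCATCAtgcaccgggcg
Iars1 at chr13:49682126-49682155, plus strand: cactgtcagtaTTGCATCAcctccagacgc
Tars1 at chr15:11399655-11399684, minus strand: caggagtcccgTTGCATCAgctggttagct
Yars1 at chr4:129189895-129189924, plus strand: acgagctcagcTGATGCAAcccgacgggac
A match is a description of these letters and not a binding site, and no match says only that the letters are not in this window.

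Values are log2(scaled count + 1), scaled by the authors to the upper quartile of each library, and a difference is the mean of the Padi6-mutant embryos minus the mean of the Control embryos. The Padi6-mutant libraries had more genes at 0 (113 to 596, mean 312 ± 191, SD, n = 9) than the Control libraries (30 to 247, mean 117 ± 76.2, SD, n = 10). Relative to each gene's mean over all libraries, their levels also leaned further towards short transcripts. The rank correlation of these deviations with transcript length across genes was -0.42 to -0.09, against -0.12 to 0.40 in Control libraries. The lowest 2 Control values, in Control 5 and Control 9, lay within the mutant range. Genes are not independent replicates, and this correlation describes each library. Padi6 itself, known for its expression in the oocyte, had a lowest, median and highest level of 2.00, 6.48 and 9.27 in Padi6-mutant embryos, against 3.81, 6.48 and 9.24 in Control embryos, with a difference of -0.04 (SE 0.78, limma adjusted p = 0.976). A substitution in the mother's gene need not alter the embryo's transcript level, so this checks no label. Of 5 trophectoderm markers none was called, Pou5f1 of 3 inner cell mass markers fell, and Gata6 and Sox17 of 3 primitive endoderm markers fell. With each library's trend with transcript length and GC content removed, Pou5f1 stayed called, while Gata6 (limma adjusted p = 0.496) and Sox17 (0.0835) did not. The 3 primitive endoderm markers had differences of -3.37 to -0.59. Their median was -3.05, and -2.60 with the trend removed. Of 10 cumulus and granulosa cell markers only Amhr2 and Star were listed in the table, and neither was called. In whole embryos, fewer cells of a type and less RNA per cell cannot be told apart.

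All 38 synthetase genes were expressed, none was at 0 in any library, and 36 lay above the median level of all genes (9.39). In Padi6-mutant embryos 4 of them fell and none rose at an adjusted p under 0.05 (limma, Benjamini-Hochberg adjustment over all genes). The 4 were Farsa, Mars1 and Rars1 of the cytosol and Aars2 of mitochondria. Over all genes 26.6% were called, 14.6% higher and 12.0% lower, so the members' 4 of 38 (10.5%) lay below the share of all genes called in either direction and near the share called lower. Among the 9682 genes with transcripts of the same length range as the members, 21.8% were called, 5.94% higher and 15.9% lower. At an unadjusted p under 0.05 there were 12 members, and at that level 5460 of all genes.

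The estimates leaned low as a family: 32 of 38 were below 0 (84.2%, against 55.3% of all genes), with a median of -0.34, against -0.10 over all genes. The cytosolic median was -0.25, with 18 of 21 below 0, and the mitochondrial median was -0.35, with 14 of 17 below 0. After removing each library's trend with transcript length and GC content these medians were -0.10 and -0.17. No test was made on either list.

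**Figure D1:**
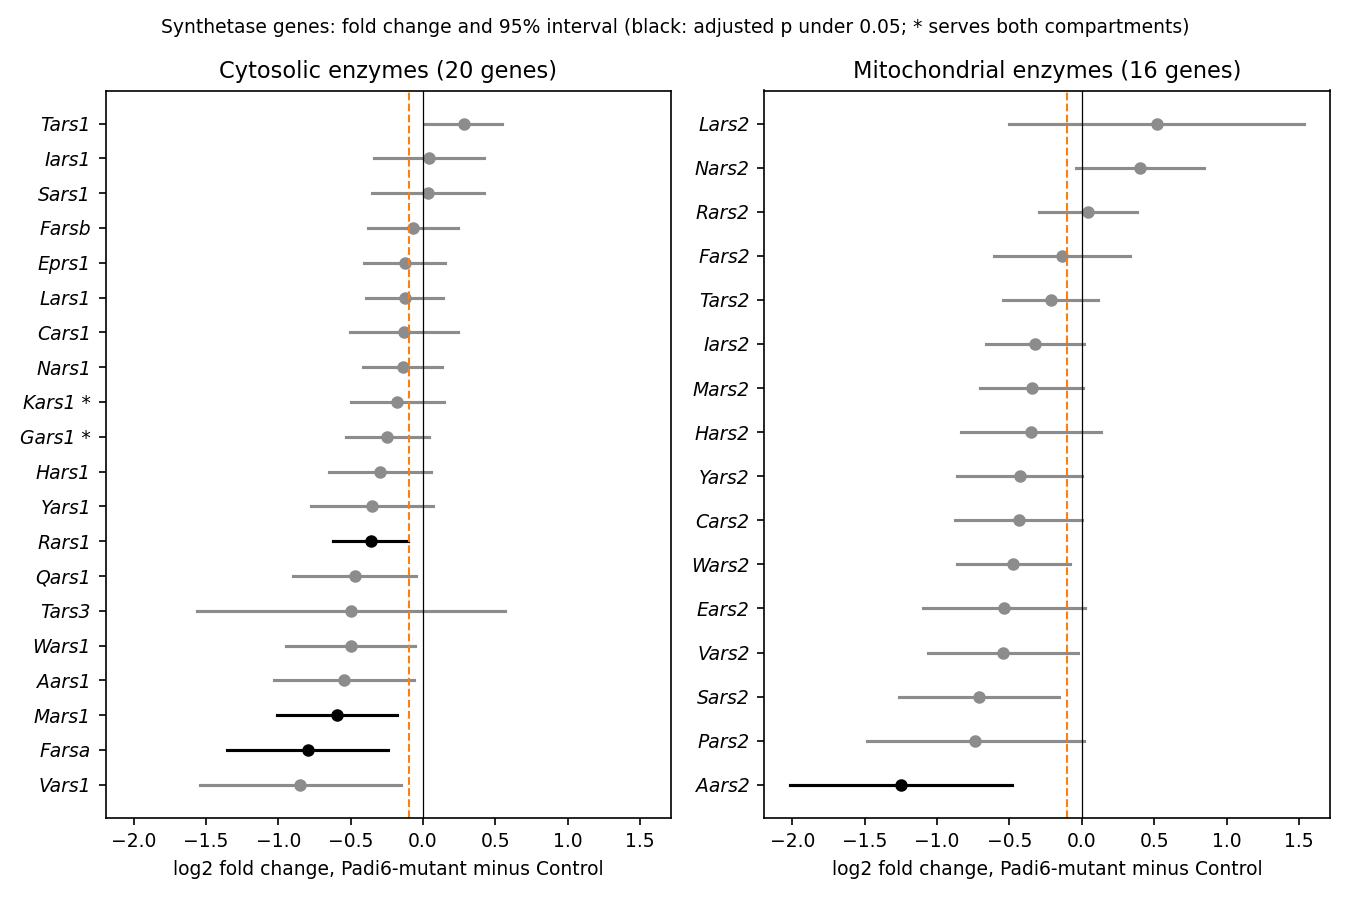
Log2 fold change (Padi6-mutant minus Control) of 36 synthetase genes, each with its 95% interval, cytosolic genes on the left and mitochondrial genes on the right. Black marks the 4 genes past an adjusted p of 0.05, the dashed orange line is the median of all genes (-0.10), and most points lie left of it.

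The changes were small and the genes were measured closely. The standard error of a member's difference had a median of 0.20, against 0.31 for all genes, and ran between 0.12 for Rars1 and 0.52 for Tars3. For 27 of 38 members the 95% interval excluded a 2-fold change in either direction. Only Aars2 had an estimate beyond 2-fold. The median SD over embryos was 0.35 in Padi6-mutant embryos and 0.40 in Control embryos for the members, against 0.61 in Padi6-mutant embryos and 0.70 in Control embryos for all genes. The SD was larger in Padi6-mutant embryos for 12 of the 38 members and for 44.9% of all genes.

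Among cytosolic enzymes, Farsa (chromosome 8) encodes the alpha subunit of phenylalanyl-tRNA synthetase. Its lowest, median and highest levels were 10.35, 10.95 and 11.79 in Padi6-mutant embryos, against 10.82, 11.75 and 12.86 in Control embryos. The groups overlapped, with 7 of 9 mutant embryos below the Control median. Farsa fell by 0.80 on the log2 scale (SE 0.27, limma adjusted p = 0.031). The partner subunit gene Farsb (chromosome 1), whose product forms the enzyme with that of Farsa, had a difference of -0.07 (SE 0.15), with levels of 12.24, 12.46 and 12.94 in Padi6-mutant embryos and 12.09, 12.57 and 13.10 in Control embryos. The difference between the subunits' responses was not tested.

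Mars1 (chromosome 10) encodes methionyl-tRNA synthetase, which charges both initiator and elongator tRNA and sits in the multi-synthetase complex. Its levels were 12.20, 12.66 and 12.83 in Padi6-mutant embryos, against 12.03, 13.22 and 13.78 in Control embryos. All 9 mutant embryos lay below the Control median, while Control 9 was the lowest embryo of the study. Mars1 fell by 0.60 (SE 0.20, limma adjusted p = 0.031).

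Rars1 (chromosome 11), the arginyl-tRNA synthetase of the complex, was the most closely measured member. Its levels were 12.85, 12.96 and 13.26 in Padi6-mutant embryos, against 12.86, 13.48 and 13.67 in Control embryos. The mutant embryos filled a narrow band at the lower end of the Control range, 9 of 9 below the Control median, with Control 5 the lowest Control embryo. Rars1 fell by 0.36 (SE 0.12, limma adjusted p = 0.034).

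Of the mitochondrial enzymes, Aars2 (chromosome 17), the alanyl-tRNA synthetase, changed most. Its levels were 8.03, 9.11 and 9.60 in Padi6-mutant embryos, against 7.73, 10.62 and 11.16 in Control embryos. All 9 mutant embryos were below the Control median, and Control 5 was lower than any of them. Aars2 fell by 1.25 (SE 0.37, limma adjusted p = 0.015), a fold of 0.42, and was called in each fit that left out 1 library (-1.52 to -1.14).

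**Figure D2:**
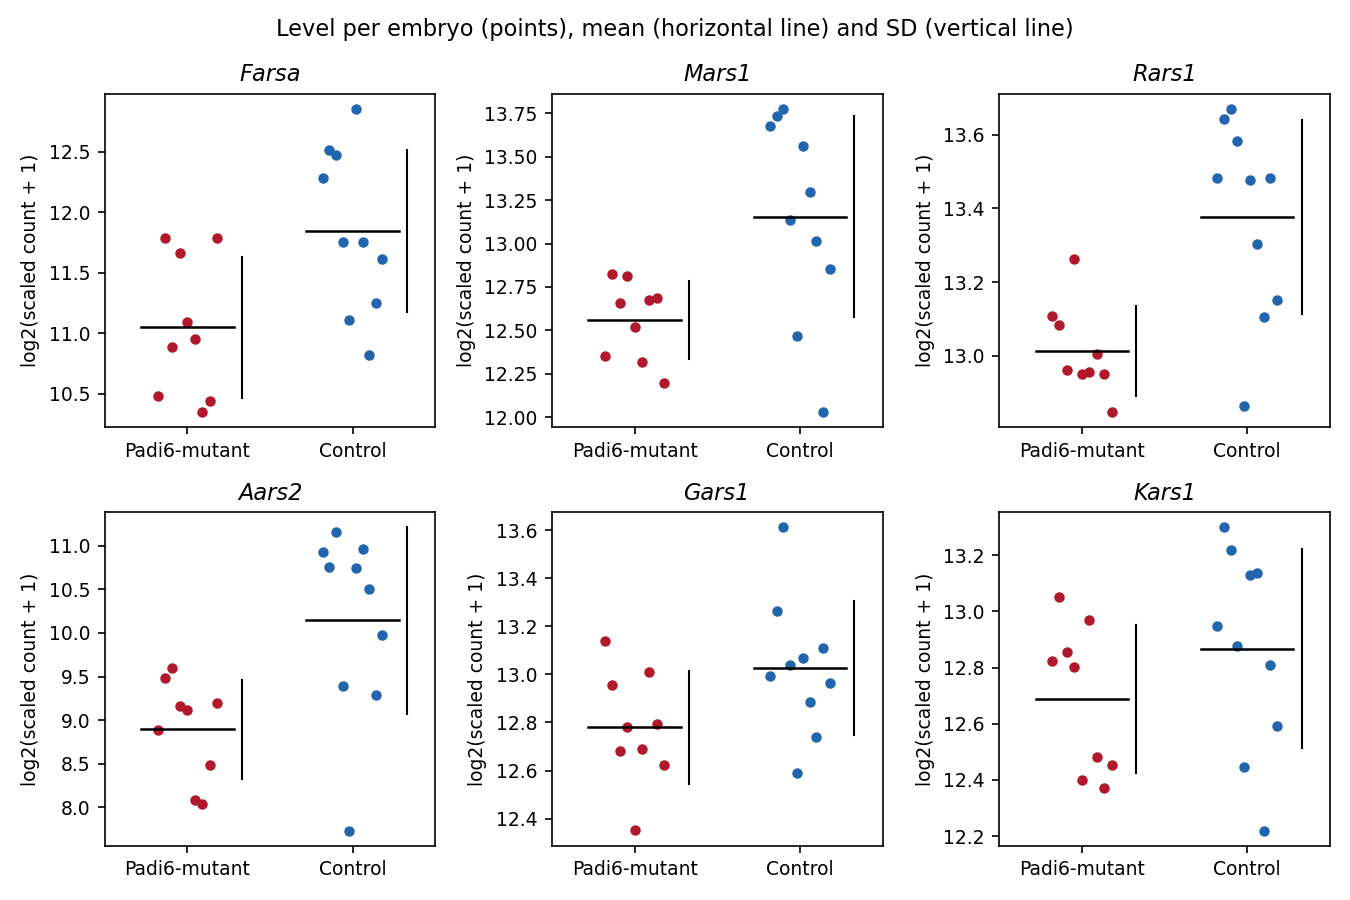
Level of the 4 called genes and of Gars1 and Kars1 in each embryo, as log2(scaled count + 1), with Padi6-mutant embryos (n = 9) left of Control embryos (n = 10). Points are embryos, horizontal lines means and vertical lines SD; the groups overlap in every panel, and Control 5 lies below all mutant embryos for Aars2.

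None of the 38 genes had groups that did not overlap, a pattern that 2.96% of all genes showed. All 4 calls ended when the number of detected genes of each library was a covariate, with limma adjusted p = 0.261 for Farsa (-0.59), 0.338 for Mars1 (-0.37), 0.249 for Rars1 (-0.28) and 0.186 for Aars2 (-0.93). With Padi6-mutant 6, 8, 9 and 10 left out, which each had more than 400 genes at 0, the adjusted p was 0.133 for Farsa (-0.69), 0.134 for Mars1 (-0.56), 0.199 for Rars1 (-0.30) and 0.101 for Aars2 (-1.10). With the length and GC trend removed, Farsa (-0.53) and Rars1 (-0.38) stayed called, and Mars1 (-0.27, adjusted p = 0.167) and Aars2 (-0.73, adjusted p = 0.0845) did not. Calls also ended on leaving out 1 library: for Farsa without Control 1, 2, 3 or 6 or Padi6-mutant 2, 4, 8 or 9 (-0.78 to -0.68, highest adjusted p 0.0627), for Mars1 without Control 1, 2, 3 or 6 or Padi6-mutant 2, 7 or 10 (-0.57 to -0.53, highest 0.0617), and for Rars1 without Control 1, 2, 3 or 4 or Padi6-mutant 4, 7, 9 or 10 (-0.36 to -0.33, highest 0.0660).

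Gars1 and Kars1, the glycyl- and lysyl-tRNA synthetase genes whose enzymes work in cytosol and mitochondria alike, did not pass the test. Gars1 (chromosome 6) had levels of 12.35, 12.78 and 13.14 in Padi6-mutant embryos and 12.59, 13.02 and 13.61 in Control embryos, with a difference of -0.25 (95% interval -0.53 to 0.04, limma adjusted p = 0.196). Kars1 (chromosome 8) had levels of 12.37, 12.80 and 13.05 in Padi6-mutant embryos and 12.22, 12.91 and 13.30 in Control embryos, with a difference of -0.18 (-0.50 to 0.14, adjusted p = 0.418). Both intervals exclude a 2-fold change, and in both genes the groups overlap over most of their range.

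The other cytosolic enzymes lay between -0.85 and 0.28. The lowest estimate was that of Vars1, the valyl-tRNA synthetase, at -0.85 (SE 0.34, limma adjusted p = 0.063), with levels of 10.45, 11.42 and 12.41 in Padi6-mutant embryos and 10.56, 12.42 and 13.44 in Control embryos. All 9 mutant embryos were below the Control median for Vars1, as they were for Aars1 (alanine, -0.55, adjusted p = 0.088), Wars1 (tryptophan, -0.50, 0.089) and Qars1 (glutamine, -0.47, 0.091). These 4 missed the threshold and passed it on leaving out single libraries: Vars1 without Control 4, 5 or 9 or Padi6-mutant 3 (-1.04 to -0.93), Aars1 without Control 5 or 9 (-0.67 to -0.63), Wars1 without Control 9 (-0.65) and Qars1 without Control 5, 8 or 9 (-0.56 to -0.55). Control 5 and Control 9 are the Control libraries that lean towards short transcripts relative to the mean of all libraries. Control 4 and Control 8 lean the other way, with rank correlations with length of 0.31 and 0.37. Padi6-mutant 3 leans towards short transcripts (-0.42). Whether a library's lean plays a part in these values was not tested.

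Below these in size came Yars1 (tyrosine, -0.35) and Hars1 (histidine, -0.30). Nars1 (asparagine), Cars1 (cysteine), Lars1 (leucine) and Eprs1 (glutamate and proline on 1 chain) lay between -0.14 and -0.13, and Sars1 (serine) and Iars1 (isoleucine) were at 0.03 and 0.04. Tars1, the threonyl-tRNA synthetase, had the highest cytosolic estimate at 0.28 (SE 0.13, limma adjusted p = 0.113), with levels of 12.59, 13.06 and 13.14 in Padi6-mutant embryos against 12.31, 12.66 and 13.16 in Control embryos. Of its 9 mutant embryos 8 were above the Control median, and with the length and GC trend removed it was called higher (0.39, adjusted p = 0.0367). Tars3, a second cytosolic threonyl-tRNA synthetase, had the lowest level per kb of the named members. On the log2 scale, not per kb, its levels were 5.64, 8.72 and 9.47 in Padi6-mutant embryos and 5.43, 8.69 and 9.83 in Control embryos (-0.50, 95% interval -1.56 to 0.57). Its estimate turned to 0.13 with Padi6-mutant 6, 8, 9 and 10 left out.

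By place in the cell, 2 of the 8 complex members were called lower (Mars1 and Rars1, list median -0.15), and 1 of the 13 cytosolic enzymes outside it (Farsa, list median -0.30). The counts here are read beside the 12.0% of all genes called lower and 14.6% called higher. By fold, class I enzymes, with a Rossmann-fold catalytic domain, had 2 of 18 called lower with a median of -0.40. Class II enzymes, built on an antiparallel sheet, had 2 of 19 called lower with a median of -0.22, and Eprs1 belongs to both classes. Of the 11 listed ATF4 targets 1 was called lower (Mars1) and none higher, with a median of -0.14. The 10 other cytosolic genes had 2 called lower (Farsa and Rars1), all 10 estimates below 0 and a median of -0.33. None of the 5 genes whose promoter windows are printed above was called.

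Of 14 listed amino acid response genes 12 were measured, 1 was called higher and 1 lower, beside 14.6% and 12.0% of all genes. Their median difference was -0.30, with 10 of 12 below 0. Atf4 itself had 11.34, 12.41 and 12.63 in Padi6-mutant embryos and 11.90, 12.37 and 13.02 in Control embryos, a difference of -0.17 (limma adjusted p = 0.506). Ddit3, which encodes the stress factor CHOP, rose by 2.19 (SE 0.30, adjusted p = 1.19e-05), with 9.72, 10.95 and 11.83 in Padi6-mutant embryos against 7.36, 8.81 and 9.98 in Control embryos. With the length and GC trend removed its call ended (0.54, adjusted p = 0.178), where the transcript length looked up for it was 105 bases, which may not stand for its mRNA. Gcn1, the ribosome-bound activator of GCN2, fell by 0.74 (SE 0.21, adjusted p = 0.0127), with 11.93, 12.72 and 12.98 in Padi6-mutant embryos against 12.27, 13.30 and 13.96 in Control embryos. The Gcn1 call ended with the trend removed (-0.17, adjusted p = 0.367), with the covariate (-0.53, 0.190) and without the 4 libraries (-0.73, 0.0531). Eif2ak4, which encodes GCN2, had a difference of -0.27 and was not called.

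The other mitochondrial enzymes lay between -0.74 and 0.52, with 13 of 16 below 0. Sars2, the seryl-tRNA synthetase, was nearest the threshold, at 9.54, 9.76 and 10.48 in Padi6-mutant embryos against 9.55, 10.76 and 11.55 in Control embryos (-0.71, SE 0.27, limma adjusted p = 0.051). All 9 mutant embryos were below the Control median of Sars2. It passed the threshold with median-of-ratios scaling (-0.74, 0.0481), with a pseudocount of 10 (-0.71, 0.0486) and without any 1 of Control 4, 5, 8 or 9 or Padi6-mutant 3 or 5 (-0.83 to -0.76). Wars2 (tryptophan) was likewise below the Control median in 9 of 9, at 8.21, 9.52 and 9.63 in Padi6-mutant embryos and 9.48, 9.73 and 10.10 in Control embryos (-0.47, adjusted p = 0.068).

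Pars2 (proline, -0.74), Vars2 (valine, -0.54), Ears2 (glutamate, -0.54), Cars2 (cysteine, -0.44) and Yars2 (tyrosine, -0.43) had adjusted p between 0.112 and 0.145. Hars2 (histidine), Mars2 (methionine), Iars2 (isoleucine), Tars2 (threonine) and Fars2 (phenylalanine) lay between -0.35 and -0.14. Rars2 (arginine) was at 0.04. Nars2 (asparagine) leaned the other way, at 9.88, 10.52 and 10.93 in Padi6-mutant embryos against 9.46, 9.88 and 10.85 in Control embryos (0.40, SE 0.21, limma adjusted p = 0.167), with 8 of 9 mutant embryos above the Control median.

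Within an embryo, cytosolic and mitochondrial levels were set against each other. The mean level of the 21 cytosolic genes was 12.14 ± 0.13 in Padi6-mutant embryos and 12.43 ± 0.30 in Control embryos, and that of the 17 mitochondrial genes was 10.50 ± 0.14 in Padi6-mutant embryos and 10.83 ± 0.21 in Control embryos (SD, n = 9 and 10). The cytosolic mean minus the mitochondrial mean was 1.65 ± 0.15 in Padi6-mutant embryos and 1.60 ± 0.18 in Control embryos, ranging between 1.42 and 1.93 in Padi6-mutant embryos and between 1.33 and 1.82 in Control embryos. The difference was 0.05 and was not tested. Leaving out Lars2 gave 1.96 ± 0.14 in Padi6-mutant embryos and 1.86 ± 0.13 in Control embryos. Medians over the genes of each list differed more between the compartments. The cytosolic median was 12.42 ± 0.16 in Padi6-mutant embryos and 12.63 ± 0.40 in Control embryos, a difference of -0.21. The mitochondrial median was 10.22 ± 0.22 in Padi6-mutant embryos and 10.75 ± 0.42 in Control embryos, a difference of -0.53. These differences were not tested either. Control 3 had the highest and Control 5 the lowest Control mean in both compartments, and Control 5, 8, 9 and 10 lay inside the mutant range for the cytosolic mean.

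The comparison was repeated by amino acid, where each compartment had its own listed gene. Eprs1, Fars2 and Tars2 recur among the pairs, so the pairs are not independent. Of 19 pairs of a cytosolic gene with its mitochondrial counterpart, the cytosolic gene moved up relative to its partner in 11 and down in 8, with a median difference of 0.07, and the groups overlapped in all 19. The largest shift was in the serine pair, where Sars1 exceeded Sars2 by 2.41 ± 0.42 in Padi6-mutant embryos and by 1.67 ± 0.37 in Control embryos on the log2 scale. The alanine pair shifted in the same direction by 0.70 and the proline pair (Eprs1 and Pars2) by 0.61. Shifts in the other direction were -0.66 for Farsa and Fars2, -0.64 for Lars1 and Lars2, and -0.54 for Nars1 and Nars2. Against the same Fars2, Farsb shifted by 0.07. Against Tars2, Tars1 shifted by 0.50 and Tars3 by -0.28. These pair values are given without a test.

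Levels between genes were compared as scaled counts per kb of transcript. In 14 of the 19 pairs the cytosolic gene was higher per kb in all 19 embryos. In asparagine the median ratio of Nars1 to Nars2 was 12.3 in Padi6-mutant embryos and 15.8 in Control embryos, and in methionine that of Mars1 to Mars2 was 13.7 in Padi6-mutant embryos and 17.5 in Control embryos. The methionine ratio rests on the transcript lengths used, 11294 bases for Mars2 and 2939 for Mars1. Before division by length, Mars1 exceeded Mars2 by a median of 1.84 in Padi6-mutant embryos and 2.19 in Control embryos on the log2 scale. The exceptions were tyrosine, with Yars1 above Yars2 in 5 embryos, threonine, with Tars1 above Tars2 in 11 and Tars3 in none, leucine, with Lars1 above Lars2 in none, and Farsa against Fars2, higher in 18. Below Lars2, high median levels were those of Rars1 (3780 per kb in Padi6-mutant embryos, 5417 in Control embryos), Nars1 (3601 in Padi6-mutant embryos, 3987 in Control embryos) and Kars1 (3553 in Padi6-mutant embryos, 3841 in Control embryos). The ranges of these 3 genes overlap, so their order is not resolved. At the lower end stood Tars3 (132 per kb in Padi6-mutant embryos, 130 in Control embryos), Vars2 (155 in Padi6-mutant embryos, 193 in Control embryos), Mars2 (161 in Padi6-mutant embryos, 208 in Control embryos) and Wars2 (167 in Padi6-mutant embryos, 193 in Control embryos), again with overlapping ranges. The low place of Mars2 also rests on its looked-up length.

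**Figure D3:**
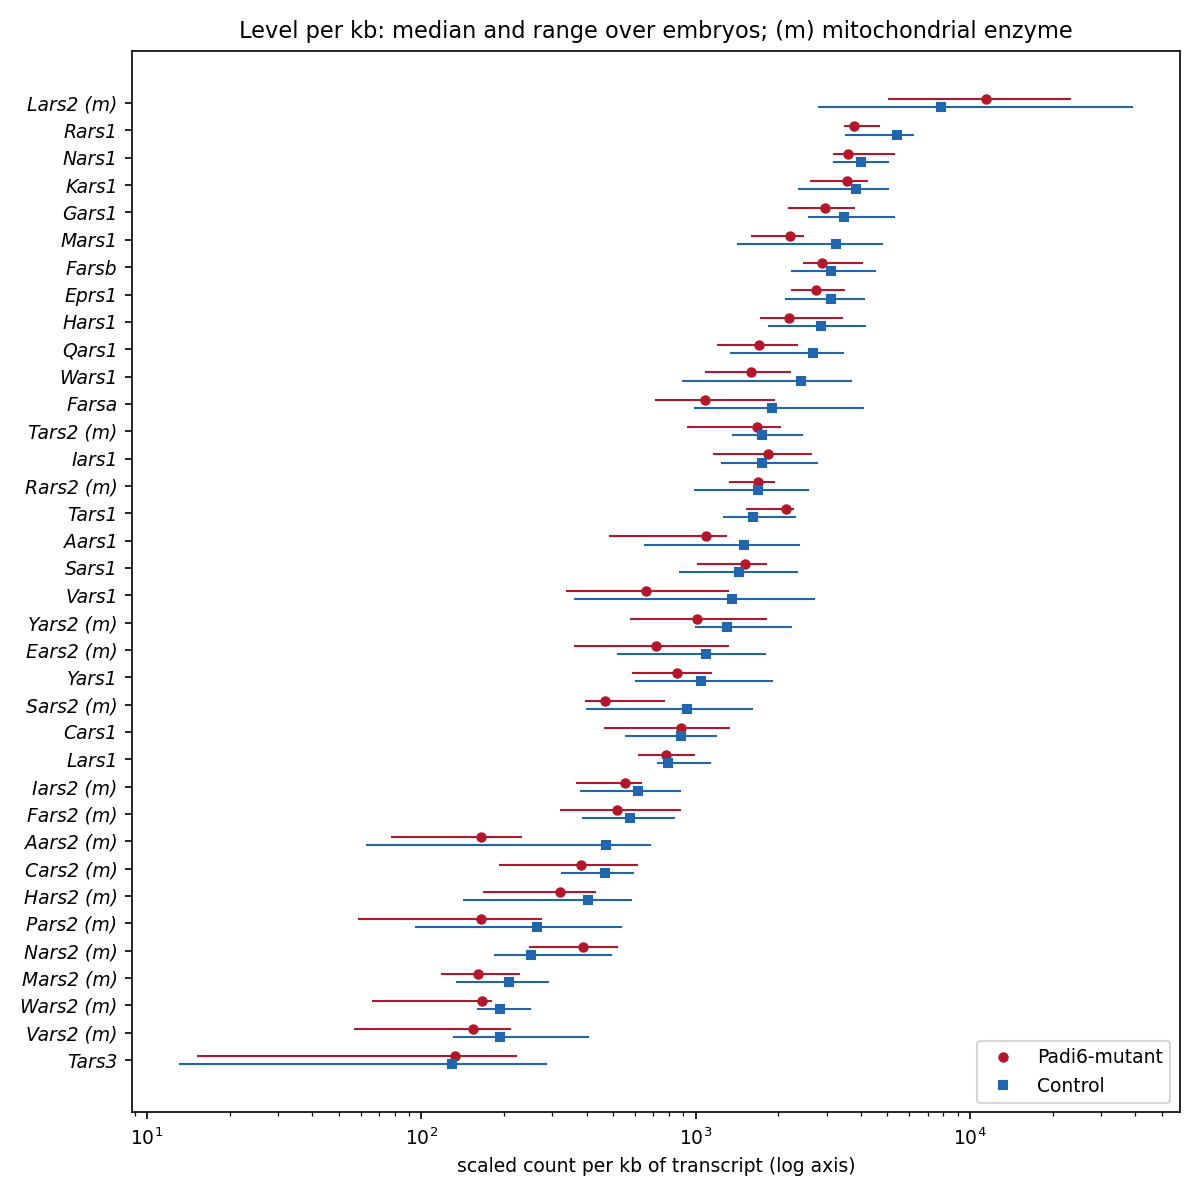
Scaled count per kb of transcript (log axis) of 36 synthetase genes, with Padi6-mutant embryos in red above Control embryos in blue; points are medians and lines the full range over embryos. Mitochondrial enzymes, marked (m), fill most of the lower part, apart from Lars2 at the top (11475 per kb in Padi6-mutant embryos and 7840 in Control embryos).

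Lars2 (chromosome 9), the mitochondrial leucyl-tRNA synthetase, had the highest level of the family per kb and the largest SD in Control embryos. Its SD over embryos was 0.73 in Padi6-mutant embryos and 1.53 in Control embryos. Its levels were 14.27, 15.45 and 16.46 in Padi6-mutant embryos and 13.42, 14.84 and 17.21 in Control embryos, with a difference of 0.52 (SE 0.49, limma adjusted p = 0.463). Per kb its Control range ran between 2824 and 38975 scaled counts. A 72-base stretch of a Lars2 transcript (positions 3278 to 3349) was 98.6% identical to a transcript of Gm15564, a gene on chromosome 16 that was looked up after these values were seen. Gm15564 had 6.89, 7.49 and 8.42 in Padi6-mutant embryos and 5.36, 7.60 and 9.11 in Control embryos. Control 5, 8, 9 and 10 were the 4 highest Control libraries for Lars2 and for Gm15564, and Control 1, 2, 6 and 7 the 4 lowest for both. The order was less alike in the mutant group. Padi6-mutant 6 was its highest and Padi6-mutant 9 its lowest embryo for both genes. Padi6-mutant 10 stood high in the group for Gm15564 (8.17) and low for Lars2 (14.78). Whether reads from another source add to the Lars2 value was not tested.

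**Figure D4:**
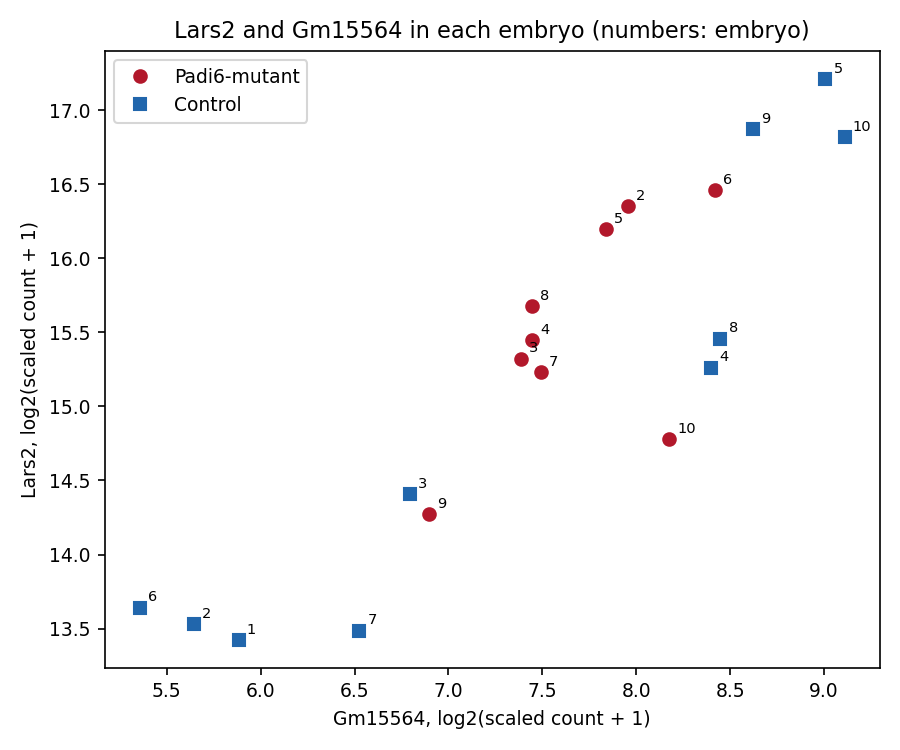
Lars2 against Gm15564 in each embryo, both as log2(scaled count + 1); red circles are Padi6-mutant embryos, blue squares Control embryos, and numbers name the embryo. Control 5, 8, 9 and 10 are the 4 highest Control embryos on each axis, and Control embryos spread wider than Padi6-mutant embryos. Padi6-mutant 10 is high in its group for Gm15564 and low for Lars2.

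The counts of some members could mix with those of other genes. A search of transcripts for shared runs of 75 bases, the read length, found 14 members that share at least 1 with a gene outside the family. The other 24 share none. Between members no run was shared on the same strand, and opposite strands were not compared there. Aars1 shares 1252 such runs with Exosc6 on the same strand. Iars2 shares 1960 with Rab3gap2, Fars2 429 with Nrn1 and Cars2 280 with Naxd, all on opposite strands, where reads of the partners cannot be told apart without strand. The called genes Farsa, Mars1, Rars1 and Aars2 share none. Whether the counting used strand is not given in the sources used here.

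All 3 scaffold genes of the multi-synthetase complex rose, while of the 8 enzymes they hold 2 fell and 6 were not called. Beside these counts stand 14.6% of all genes called higher and 12.0% called lower. Aimp1 had 12.56, 13.06 and 13.86 in Padi6-mutant embryos against 11.02, 11.97 and 13.39 in Control embryos, and rose by 0.96 (SE 0.24, limma adjusted p = 0.0049). Eef1e1, which encodes AIMP3, had 13.33, 13.59 and 14.75 in Padi6-mutant embryos against 11.61, 12.39 and 13.82 in Control embryos, and rose by 1.05 (SE 0.26, adjusted p = 0.0041). Aimp2 had 11.39, 12.29 and 12.72 in Padi6-mutant embryos against 10.50, 11.42 and 12.65 in Control embryos, and rose by 0.70 (SE 0.25, adjusted p = 0.0386). All 9 mutant embryos were above the Control median for Aimp1 and Eef1e1, and 8 of 9 for Aimp2.

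With the length and GC trend removed, Eef1e1 kept its value (1.05, limma adjusted p = 0.0043), while Aimp1 (0.35, 0.106) and Aimp2 (0.36, 0.140) were no longer called; the transcripts of Aimp1 and Aimp2 are 1126 and 1185 bases long and that of Eef1e1 2553. With detected genes as a covariate all 3 calls ended, at adjusted p = 0.0705 for Aimp1 (0.83), 0.0945 for Eef1e1 (0.79) and 0.0906 for Aimp2 (0.80). The Aimp2 call also ended without the 4 libraries named above (0.66, 0.157), with library weights (0.48, 0.114), with median-of-ratios scaling (0.68, 0.0518) and without any 1 of Control 1, 4, 8, 9 or 10 or Padi6-mutant 3, 4, 5, 6, 9 or 10 (0.59 to 0.70, highest adjusted p 0.0711).

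**Figure D5:**
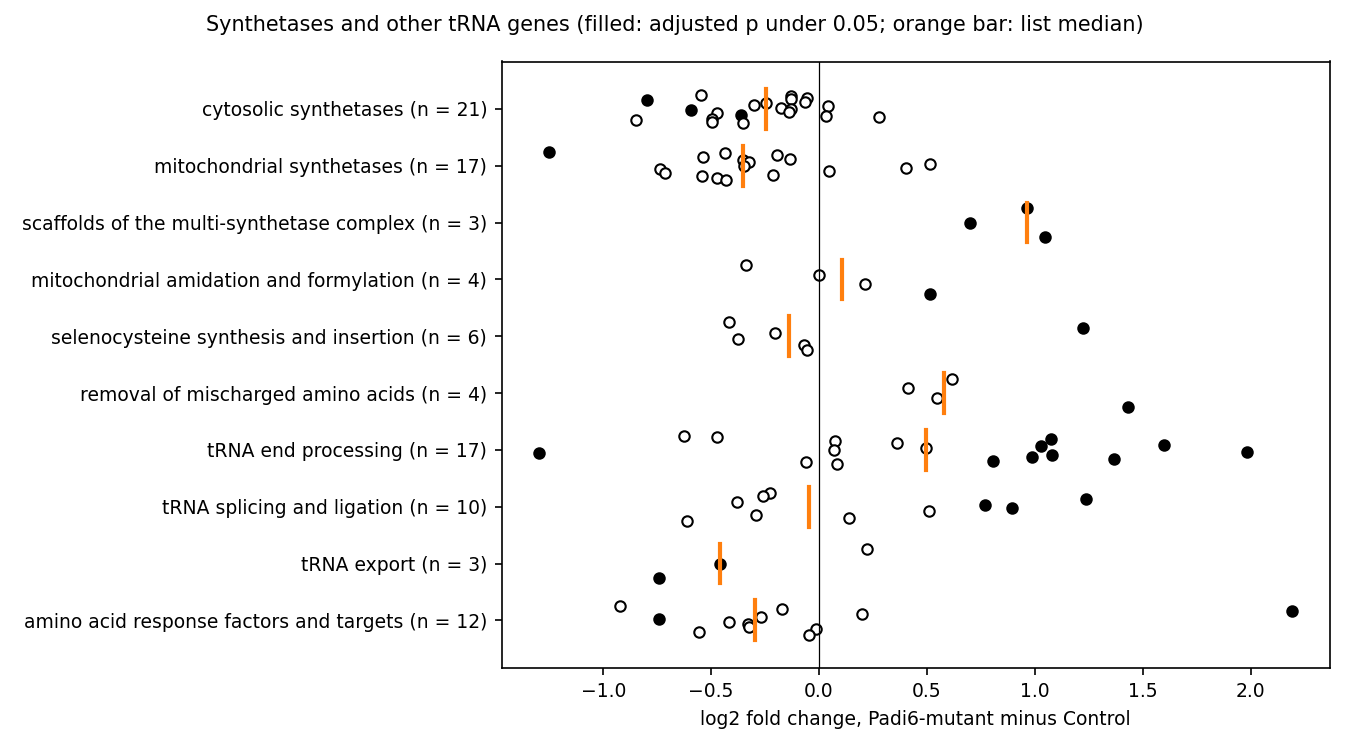
Log2 fold change (Padi6-mutant minus Control) of the synthetases and of other genes that act on tRNA or respond to amino acids, 1 point a gene, by list. Filled points passed an adjusted p of 0.05 and orange bars are list medians; the 3 scaffold genes lie right of 0, the cytosolic and mitochondrial medians left of it.

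Other genes that complete or check tRNA charging were mixed, beside 14.6% of all genes called higher and 12.0% called lower. Of 4 genes for mitochondrial amidation and formylation, Qrsl1, a subunit gene of the mitochondrial amidotransferase that makes glutaminyl-tRNA, rose by 0.52 (SE 0.17, limma adjusted p = 0.0313) and the other 3 were not called. The Qrsl1 call ended without Control 8 or Padi6-mutant 4 or 9 (0.45 to 0.48), with the covariate (0.58, 0.0844), with library weights (0.38, 0.0831) and without the 4 libraries (0.48, 0.142). Of 6 selenocysteine genes, Pstk, the kinase that acts on seryl-tRNA for selenocysteine, rose by 1.22 (SE 0.25, adjusted p = 0.0008), with 10.81, 11.73 and 12.02 in Padi6-mutant embryos against 9.41, 10.18 and 11.50 in Control embryos. Its difference was 0.61 (0.0117) with the trend removed. Of 4 genes for removing wrongly joined amino acids, Prorsd1 rose by 1.43 (SE 0.37, adjusted p = 0.0065), which became 0.37 (0.242) with the trend removed and 1.17 (0.0964) with the covariate.

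Of 17 genes that process the ends of tRNA before it is charged, 8 rose and 1 fell, with a list median of 0.50, beside 14.6% of all genes called higher and 12.0% lower. With the length and GC trend removed 3 rose and 2 fell. Among RNase P protein genes, Rpp21 rose by 1.99 (SE 0.26, limma adjusted p = 5.10e-06), with 10.96, 12.05 and 12.73 in Padi6-mutant embryos against 8.81, 9.96 and 11.10 in Control embryos, and Pop5 rose by 1.60 (SE 0.25, adjusted p = 5.64e-05). With the trend removed these were 1.07 and 1.15. Hsd17b10, whose product is part of mitochondrial RNase P, rose by 1.07 (SE 0.23, adjusted p = 0.00141), which became 0.34 (adjusted p = 0.188) with the trend removed. Rpp25, another RNase P protein gene, fell by 1.30 (SE 0.33, adjusted p = 0.0054), with 6.58, 8.67 and 9.72 in Padi6-mutant embryos against 9.10, 9.88 and 10.54 in Control embryos; its call ended with the covariate (-0.72, 0.199).

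Of 10 splicing and ligation genes 3 rose, beside 14.6% of all genes called higher. They were Fam98b (1.24, SE 0.27, limma adjusted p = 0.00175) and Rtraf (0.77, SE 0.22, 0.0123), which encode partners of the tRNA ligase, and Trpt1 (0.89, SE 0.26, 0.0150), a tRNA phosphotransferase gene. With the covariate Fam98b (0.99, limma adjusted p = 0.0522) and Rtraf (0.81, 0.0563) were not called, and with the trend removed Rtraf (0.49, 0.0509) and Trpt1 (0.50, 0.130) were not. The ligase gene Rtcb itself had a difference of -0.38 (adjusted p = 0.0698). Of 3 export genes 2 fell, beside 12.0% of all genes called lower. Xpot, the export receptor of tRNA, had 12.05, 12.58 and 13.03 in Padi6-mutant embryos against 12.62, 13.24 and 13.85 in Control embryos and fell by 0.74 (SE 0.16, adjusted p = 0.0016), with -0.59 (0.0035) after trend removal. Xpo5, an exporter of small RNA hairpins that also binds tRNA, fell by 0.46 (SE 0.16, adjusted p = 0.0432), a call that ended with the trend removed (-0.20, 0.385) and with the covariate (-0.54, 0.0850). The Xpo5 call stood on leaving out 1 library only without Control 5 or 9 or Padi6-mutant 6 or 10, and ended without any of the other 15 (-0.48 to -0.41, highest adjusted p 0.0828).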

How the data were processed

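Polyadenylated RNA of single blastocysts was captured on beads, amplified as full-length cDNA (17 cycles) and sequenced as pairs of 75 bases at a mean of 4200000 reads, per the labels' protocols. Those name 20 pooled libraries, of which 19 are analysed here. Trim Galore 0.4.4, HISAT2 2.1.0 and GRCm39 (mm39) come from the submitters' processing notes; the counting tool, annotation and strand setting are not given in the sources used here. The deposited values are log2 of an upper-quartile scaled count plus 1; raw counts and each library's depth are unknown here. Of the columns with values, 0 lacked a sample.

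The log2 values were fitted with limma 3.58.1 in R 4.3.3 (trended empirical Bayes, two-sided) over all 14173 genes above 0 in at least 9 libraries. The adjustment was Benjamini-Hochberg, with a threshold of 0.05. The fit was tested on simulated data, drawn independently for each gene with equal spread in both groups. Those data held no library trends, so they do not show how the fit behaves under them. Transcript lengths, GC and chromosomes came from an older annotation (GENCODE M21, GRCm38) matched by symbol for 13629 genes. Per kb values divide by the principal transcript where one is marked. Shared stretches were aligned with blastn 2.17.0. The counts cover all 38 members; 2 of them are not reported by name here. The members and lists, including ATF4 targets and tRNA genes written from general knowledge, were chosen with earlier results of these data known. Genes given in full are the called members, Gars1 and Kars1; of each other list, up to 4 called genes by smallest adjusted p are named. A few others (Vars1, Tars1, Tars3, Sars2, Wars2, Nars2, Lars2, Farsb, Atf4, Eif2ak4, Rtcb and Gm15564) were given more values after these were seen. Alternatives covered scaling, pseudocount, filters, library weights, a replicate block, covariates and left-out libraries.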

Additional observations from a re-analysis of the deposited data

Results flagged for a closer look

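Of 108 sets of 9 or 10 embryos examined, 72 of them for synthetase genes, 7 held an embryo whose gap to its nearest neighbour was large against the range of the group. Chance alone gives about 1 such set in 20. In Padi6-mutant embryos, Rars2 was lowest in embryo 3 (11.28, nearest 11.58), Tars1 in embryo 6 (12.59, nearest 12.89) and Wars2 in embryo 2 (8.21, nearest 9.06). In Control embryos, Hars2 was lowest in embryo 5 (8.91, nearest 9.91), Tars3 lowest in embryo 10 (5.43, nearest 8.50) and Wars2 highest in embryo 1 (10.10, nearest 9.80). Among the scaffold genes, Eef1e1 was highest in Padi6-mutant embryo 6 (14.75, nearest 13.90).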

How the results depend on the processing

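The calls are few and lie close to the threshold, so counts move easily. All genes called numbered 1807 with detected genes as a covariate, 5349 with library weights, 2622 without the 4 libraries with over 400 genes at 0, 2860 with the length and GC trend removed, 2574 among genes above the median level, 2528 with the replicate block and 3035 to 4288 on leaving out 1 library. Cytosolic genes called lower numbered 8 with library weights, 1 with the replicate block, 0 with the covariate, 0 without the 4 libraries and 0 to 7 on leaving out 1 library (0 without Control 1, 2 or 3, 1 without Control 6 or Padi6-mutant 2, 4, 7, 9 or 10, 6 without Control 5 and 7 without Control 9); called higher they numbered 1 (Tars1) with the trend removed and 0 to 0 on leaving out 1. Mitochondrial genes called lower numbered 2 with median-of-ratios scaling, a pseudocount of 10 or genes above the median level, 6 with library weights, 0 with the covariate, without the 4 libraries or with the trend removed, and 1 to 2 on leaving out 1 library (2 without Control 4, 5, 8 or 9 or Padi6-mutant 3 or 5); called higher they numbered 1 with library weights (Lars2 1.11, limma adjusted p = 0.0428) and 0 to 0 on leaving out 1. List medians ran between -0.29 and -0.18 (cytosolic) and -0.44 and -0.32 (mitochondrial) on leaving out 1 library and stayed below 0 throughout. The cause of these shifts was not tested.

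Same-numbered embryos did not deviate together (correlations -0.07 to 0.15, 1 of 9 over 0.1). Correlations over genes cannot show whether a number stands for a shared litter or day, so a pairing is undecided. The replicate block gave Mars1 -0.54, Rars1 -0.35, Aimp2 0.66, Qrsl1 0.52, Gcn1 -0.67 and Xpo5 -0.44, none called.

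Signs turned for genes that were not called: with the trend removed Cars1 0.20, Eprs1 0.020, Rars2 -0.072, Tars2 0.11 and Padi6 0.21; with the covariate Fars2 0.039, Farsb 0.070, Iars1 -0.050, Kars1 0.091, Rars2 -0.12 and Tars2 0.035; without the 4 libraries Farsb 0.049, Iars1 -0.076, Kars1 0.033, Rars2 -0.011 and Tars3 0.13; with quantile normalization Iars1 -0.027 and Sars1 -0.024; with library weights Sars1 -0.072 and Padi6 0.042; with a pseudocount of 10 Padi6 0.069; with the replicate block Rars2 -0.026. On leaving out 1 library Iars1 ran between -0.026 and 0.12, Rars2 between -0.034 and 0.12, Sars1 between -0.042 and 0.12, and Padi6 between -0.39 and 0.52.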
